A study of Homo sapiens with 16 samples.

Results

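The genes described here are those whose symbols begin with ZBTB, ZSCAN or ZKSCAN followed by a number. The names stand for 3 families of zinc finger transcription factors, and the members were chosen by name alone, so that they include ZBTB8OS, which has no zinc finger motif, and the pseudogene ZSCAN12P1. The gene table listed 59 of them, 39 ZBTB, 15 ZSCAN and 5 ZKSCAN genes. Of these, 52 had a mean value of at least 10 over all libraries and were tested, namely 36 ZBTB, 11 ZSCAN and 5 ZKSCAN genes out of 14544 genes tested in all. The remaining 7, ZBTB16, ZBTB20, ZBTB32, ZSCAN1, ZSCAN4, ZSCAN5B and ZSCAN10, lay below that level. Among the genes near it, ZBTB8B had a mean of 10.2 and was tested, and ZBTB20 had a mean of 8.32 and was not. ZBTB8B passed through its DMSO libraries, with a mean of 6.03 with TLT and of 14.3 with DMSO, and it was not called.

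C2H2 zinc fingers are short folds held by a zinc ion that read DNA bases, and the families differ in the domain that accompanies them. ZBTB proteins carry a BTB domain, which pairs protein chains, recruits corepressors such as BCOR and, in many BTB proteins, binds the ubiquitin ligase scaffold CUL3. ZSCAN proteins carry a SCAN domain, a leucine-rich dimerization domain of vertebrates. Many ZKSCAN proteins add a KRAB domain, which recruits the corepressor TRIM28 and its silencing partners. Well-known ZBTB factors act in blood and lymphocyte development, at methylated CpG sites and in partnership with MYC.

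The data are RNA-seq libraries of 8 established breast cancer lines of human origin, HCC1143, HCC1395, HCC38, HCC70, MDA-MB-157, MDA-MB-231, MDA-MB-436 and MDA-MB-468, all at passages 5 to 20. Each line was treated for 6 h with topsentinol L trisulfate (TLT), a trisulfated sterol from a marine sponge, at a dose labelled EC75, or with the vehicle dimethyl sulfoxide (DMSO). This gave 8 TLT and 8 DMSO libraries, 1 of each per line. The labels name neither a concentration nor separate cultures, so the p-values measure the spread of the change between the 8 lines.

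The values were RSEM estimates scaled to the upper quartile of each library, so that 1000 lay near the 75th percentile of a library, and they were not divided by gene length. The value of 1 read, estimated from the steps between low values, was 0.907 to 1.49 in the TLT libraries and 0.810 to 1.26 in the DMSO libraries. The estimated depth was 10.6 to 20.1 M reads in the TLT libraries and 12.2 to 18.8 M reads in the DMSO libraries. Changes are given as log2(value + 1) with TLT minus the same with DMSO, a scale that understates the change of low genes, with the standard error from limma. Of the markers of the lines themselves, KRT8, KRT18 and VIM were present in every library, at lowest values of 121, 310 and 246. KRT5, KRT17 and EPCAM varied between lines and fell to 8.94, 1.16 and 4.73 in their lowest libraries. Of 10 markers of blood, stromal and endothelial cells 3 reached the level for testing, of which 0 were lower and PDGFRB was higher, at 0.81 (limma adjusted p = 0.046). Their summed value was 161 to 41691 in the TLT libraries and 136 to 22899.6 in the DMSO libraries, mostly from the stromal genes COL1A1, COL3A1 and PDGFRB. The blood cell markers PTPRC, HBB, CD3E and MS4A1 stood at 0 to 1.82 in all 16 libraries, and LYZ reached 28.8 with TLT and 19.5 with DMSO. The endothelial marker PECAM1 reached 49.8 with TLT and 8.09 with DMSO, and VWF reached 11.9 with TLT and 16.5 with DMSO. The part of these markers in the members' changes was not tested. A gene was called where its adjusted p over all genes tested was at most 0.05.

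Zinc finger genes of the 3 families were lower more often than higher with TLT. Of the 52 tested members, 16 were called lower (30.8%), against 10.9% of all genes tested, and 3 were called higher (5.77%), against 15% of all genes tested. The other 33 were not called. Without MDA-MB-468, 10 members were lower (19.2%), against 7.48% of all genes tested, and 3 were higher (5.77%), against 10.3%. Changes were below 0 for 37 members (71.2%), against 44.7% of all genes, and the median change was −0.25, against 0.05 for all genes. Of the 16 lower members, 7 were lower in 8 of 8 lines and 14 in at least 7 lines. In every member the range of the TLT libraries overlapped the range of the DMSO libraries, and the calls rest on the difference within lines.

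**Figure D1:**
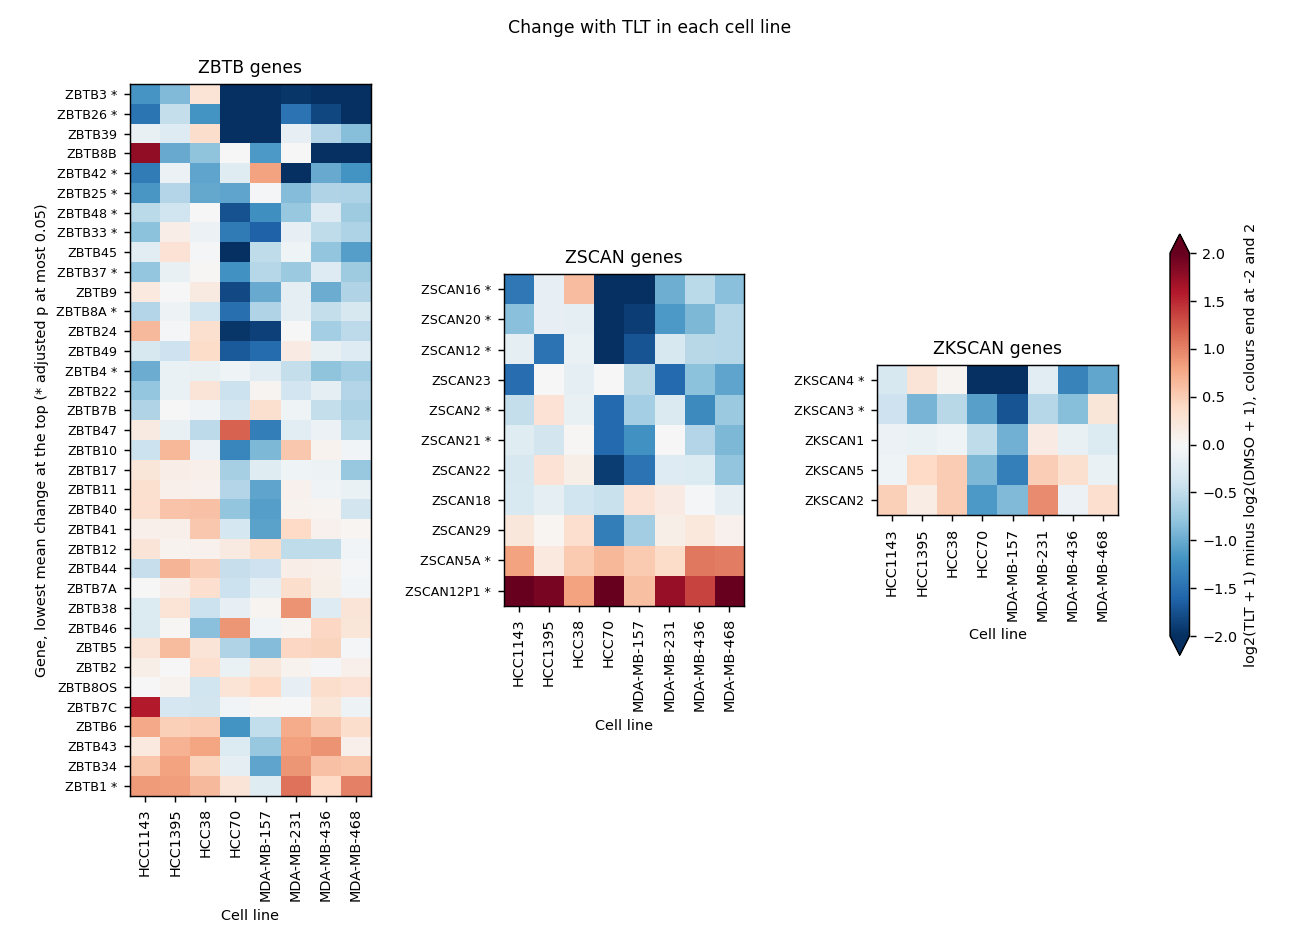
Change of each of the 52 tested members in each of the 8 cell lines, as log2(TLT + 1) minus log2(DMSO + 1). Blue is lower and red is higher with TLT, colours end at −2 and 2, members run from the lowest mean change at the top of each family, and an asterisk marks an adjusted p of at most 0.05. The darkest columns are HCC70 and MDA-MB-157, where 43 and 41 of the 52 members were below 0.

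Promoter sequences of 7 called members are shown first, to show the starts of members with large changes and of the opposed neighbours ZBTB1 and ZBTB25. They run from 250 bases before to 50 bases after the RefSeq start of each gene on GRCh38.p14. They were chosen as the called falls of largest size with an entry, ZBTB3 (chr11:62754111-62754410, minus strand), ZBTB26 (chr9:122931463-122931762, minus), ZSCAN20 (chr1:33472395-33472694, plus) and ZSCAN12 (chr6:28399698-28399997, minus), the rises ZBTB1 (chr14:64503637-64503936, plus) and ZSCAN5A (chr19:56368229-56368528, minus), and ZBTB25 (chr14:64505164-64505463, minus), the neighbour of ZBTB1. Capitals mark matches on either strand to the motifs counted over all promoters, the GC box GGGCGG, the CCAAT box, the ETS motif CCGGAAG and the E box CACGTG.
ZBTB3: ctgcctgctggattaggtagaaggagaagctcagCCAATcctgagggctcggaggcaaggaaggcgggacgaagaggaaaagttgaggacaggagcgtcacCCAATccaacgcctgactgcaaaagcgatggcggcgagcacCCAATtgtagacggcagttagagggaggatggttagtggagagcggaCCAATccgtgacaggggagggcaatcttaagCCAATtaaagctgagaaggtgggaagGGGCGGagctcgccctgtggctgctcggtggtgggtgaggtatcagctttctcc
ZBTB26: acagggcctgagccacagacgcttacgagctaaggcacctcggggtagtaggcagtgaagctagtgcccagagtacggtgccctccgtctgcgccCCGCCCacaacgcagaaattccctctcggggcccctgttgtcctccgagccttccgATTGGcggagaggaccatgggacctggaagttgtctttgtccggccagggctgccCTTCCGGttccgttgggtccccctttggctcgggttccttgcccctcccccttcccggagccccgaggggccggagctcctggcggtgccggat
ZSCAN20: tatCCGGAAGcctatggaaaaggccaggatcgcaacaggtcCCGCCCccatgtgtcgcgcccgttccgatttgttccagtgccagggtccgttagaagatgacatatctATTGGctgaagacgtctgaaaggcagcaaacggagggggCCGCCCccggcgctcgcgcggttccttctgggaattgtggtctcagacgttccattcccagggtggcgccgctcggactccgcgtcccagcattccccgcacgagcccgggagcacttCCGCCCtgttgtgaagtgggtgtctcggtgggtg
ZSCAN12: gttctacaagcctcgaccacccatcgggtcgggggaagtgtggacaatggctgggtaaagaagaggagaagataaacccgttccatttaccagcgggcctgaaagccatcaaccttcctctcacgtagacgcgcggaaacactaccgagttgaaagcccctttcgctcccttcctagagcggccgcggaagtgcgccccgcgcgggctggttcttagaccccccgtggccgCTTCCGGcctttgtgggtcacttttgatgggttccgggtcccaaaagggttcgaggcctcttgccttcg
ZBTB25: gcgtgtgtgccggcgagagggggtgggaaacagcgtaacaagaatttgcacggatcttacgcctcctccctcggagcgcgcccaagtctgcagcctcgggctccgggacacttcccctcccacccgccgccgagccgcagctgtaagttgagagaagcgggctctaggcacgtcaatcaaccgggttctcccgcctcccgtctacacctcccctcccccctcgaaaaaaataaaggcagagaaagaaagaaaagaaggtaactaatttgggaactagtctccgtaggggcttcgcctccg
ZBTB1: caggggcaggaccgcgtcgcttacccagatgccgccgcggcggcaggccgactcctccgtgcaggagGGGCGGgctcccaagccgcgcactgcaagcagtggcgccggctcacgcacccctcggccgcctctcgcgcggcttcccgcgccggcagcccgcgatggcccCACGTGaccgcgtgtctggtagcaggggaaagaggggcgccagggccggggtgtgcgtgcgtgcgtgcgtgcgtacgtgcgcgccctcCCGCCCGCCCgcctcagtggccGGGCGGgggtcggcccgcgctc
ZSCAN5A: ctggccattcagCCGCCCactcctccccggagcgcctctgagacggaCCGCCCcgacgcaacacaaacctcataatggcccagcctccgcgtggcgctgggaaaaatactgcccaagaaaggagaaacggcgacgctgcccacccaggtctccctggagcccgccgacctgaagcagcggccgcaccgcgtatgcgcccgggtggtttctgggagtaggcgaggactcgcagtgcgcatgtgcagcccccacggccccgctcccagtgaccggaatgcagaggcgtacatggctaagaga

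Among the ZBTB genes, ZBTB26 and ZBTB3 had the lowest changes. ZBTB26 (chr9:125677845-125693791 on GRCh37, minus strand, its coding sequence in 1 exon) is a little studied member with 4 C2H2 fingers by sequence match. Its values were 28.8 in HCC1143, 41.98 in HCC1395, 37.7 in HCC38, 10.9 in HCC70, 6.94 in MDA-MB-157, 22.4 in MDA-MB-231, 25.3 in MDA-MB-436 and 5.45 in MDA-MB-468 with TLT, against 80.9 in HCC1143, 58.7 in HCC1395, 87.5 in HCC38, 58.4 in HCC70, 32.5 in MDA-MB-157, 64.1 in MDA-MB-231, 91.8 in MDA-MB-436 and 25.1 in MDA-MB-468 with DMSO. It was lower in all 8 lines, and its TLT values in HCC1395 and HCC38 exceeded the DMSO values of MDA-MB-157 and MDA-MB-468, so the groups overlapped. ZBTB26 averaged 22.4 ± 13.8 in TLT libraries and 62.4 ± 24.3 in DMSO libraries (SD, n = 8 each), a change of −1.60 ± 0.22 (SE, limma adjusted p = 0.000465) or 0.329-fold. The lowest TLT values of ZBTB26, in MDA-MB-157 and MDA-MB-468, rest on few reads.

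ZBTB3 (chr11:62515791-62521656, minus strand), with 2 C2H2 fingers and likewise 1 coding exon, stood at 36.01 in HCC1143, 53.1 in HCC1395, 97.1 in HCC38, 7.25 in HCC70, 10.4 in MDA-MB-157, 17.9 in MDA-MB-231, 19.3 in MDA-MB-436 and 30.00 in MDA-MB-468 with TLT, against 82.7 in HCC1143, 99.1 in HCC1395, 80.4 in HCC38, 64.3 in HCC70, 46.5 in MDA-MB-157, 71.6 in MDA-MB-231, 99.8 in MDA-MB-436 and 126 in MDA-MB-468 with DMSO. HCC38 was the exception, with a higher value with TLT, and the other 7 lines were lower. The change was −1.64 ± 0.30 (SE, limma adjusted p = 0.00243), or 0.321-fold, and it ran from −2.98 in HCC70 to 0.27 in HCC38. The lowest TLT value of ZBTB3, in HCC70, rests on few reads.

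ZBTB25 (chr14:64915824-64971931, minus strand) has its coding sequence in 2 exons. It stood at 84.3 in HCC1143, 53.02 in HCC1395, 33.4 in HCC38, 68.9 in HCC70, 45.4 in MDA-MB-157, 39.7 in MDA-MB-231, 46.4 in MDA-MB-436 and 49.7 in MDA-MB-468 with TLT, against 191 in HCC1143, 79.98 in HCC1395, 68.97 in HCC38, 144 in HCC70, 46.6 in MDA-MB-157, 73.1 in MDA-MB-231, 70.8 in MDA-MB-436 and 77.00 in MDA-MB-468 with DMSO. All 8 lines were lower, with almost no difference in MDA-MB-157, where the change was −0.04. The change over the 8 lines was −0.74 ± 0.16 (SE, limma adjusted p = 0.00612).

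ZBTB42 (chr14:105266933-105271049, plus strand) has a single exon in the annotation. It stood at 199 in HCC1143, 71.6 in HCC1395, 49.1 in HCC38, 237 in HCC70, 96.1 in MDA-MB-157, 10.4 in MDA-MB-231, 38.6 in MDA-MB-436 and 79.1 in MDA-MB-468 with TLT, against 527 in HCC1143, 77.9 in HCC1395, 103 in HCC38, 279 in HCC70, 54.6 in MDA-MB-157, 48.99 in MDA-MB-231, 78.8 in MDA-MB-436 and 182 in MDA-MB-468 with DMSO. The fall was largest in MDA-MB-231, at −2.13, where the TLT value rests on few reads, and MDA-MB-157 went the other way, at 0.80. The change was −0.79 ± 0.26 (SE, limma adjusted p = 0.0418), and the call was lost without HCC1143, HCC38, MDA-MB-231, MDA-MB-436 or MDA-MB-468, with an adjusted p of 0.00666 to 0.0995 over the 8 fits.

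The other 5 lower ZBTB genes included factors with known DNA targets. ZBTB33, or Kaiso, and ZBTB4 bind methylated CpG sites. ZBTB33 ranged from 363 to 1801 with a median of 739.9 in TLT libraries and 796 to 1959 with a median of 1084 in DMSO libraries, and it changed by −0.64 ± 0.17 (SE, limma adjusted p = 0.0175), lower in 7 lines with HCC1395 at 0.13. ZBTB4 ranged from 341 to 1411 with a median of 618 in TLT libraries and 553 to 1917 with a median of 976 in DMSO libraries. It was lower in 8 of 8 lines, with a change of −0.45 ± 0.11 (SE, limma adjusted p = 0.0117), from −0.99 in HCC1143 to −0.09 in HCC70. ZBTB48, known as TZAP, binds telomeric repeats. Its values ranged from 78.9 to 211 with a median of 127 in TLT libraries and 139 to 266 with a median of 199 in DMSO libraries, and it was lower in 8 of 8 lines, with a change of −0.71 ± 0.18 (SE, limma adjusted p = 0.0123). ZBTB8A, also lower in 8 of 8 lines, changed by −0.52 ± 0.14 (SE, limma adjusted p = 0.0187). ZBTB37 changed by −0.55 ± 0.18 (SE, limma adjusted p = 0.0415), a call that was lost with any line but HCC1395 or HCC38 left out, when the adjusted p reached up to 0.0985.

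Several of the most studied ZBTB factors were not called. ZBTB7A, the repressor known as LRF, averaged 500.1 ± 178 in TLT libraries and 472 ± 95.5 in DMSO libraries (SD, n = 8 each), and its change of 0.03 ± 0.10 (SE) split 4 lines against 4. ZBTB38, which like ZBTB4 and ZBTB33 binds methylated CpG sites, changed by 0.04 ± 0.12 (SE), also with 4 lines on either side. The signs of the changes of ZBTB7A and ZBTB38 flipped with single lines left out. ZBTB17, the MYC partner MIZ1, changed by −0.17 ± 0.13 (SE, limma adjusted p = 0.331). ZBTB7B, which in T cells directs the CD4 fate and is known as ThPOK, changed by −0.23 ± 0.11 (SE, limma adjusted p = 0.144), and it was called lower, at −0.31 with an adjusted p of 0.0389, with MDA-MB-157 left out. ZBTB24, mutated in an immunodeficiency with unstable centromeres, changed by −0.51 ± 0.26 (SE, limma adjusted p = 0.162), between −1.95 in HCC70 and 0.65 in HCC1143. Just beyond the threshold stood ZBTB39, lower in 7 lines at −0.85 ± 0.30 (SE, limma adjusted p = 0.0537).

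Of the 11 ZSCAN genes tested, 5 were lower and 2 higher. ZSCAN20 (chr1:33938246-33967243, plus strand), with 10 C2H2 fingers, stood at 73.2 in HCC1143, 135 in HCC1395, 161 in HCC38, 17.2 in HCC70, 30.1 in MDA-MB-157, 31.3 in MDA-MB-231, 108 in MDA-MB-436 and 73.6 in MDA-MB-468 with TLT, against 132 in HCC1143, 152 in HCC1395, 186 in HCC38, 106 in HCC70, 114 in MDA-MB-157, 70.4 in MDA-MB-231, 204 in MDA-MB-436 and 110.2 in MDA-MB-468 with DMSO. Every line was lower, by little in HCC38 and HCC1395 and most in HCC70, where the change was −2.56. Its change was −1.03 ± 0.24 (SE, limma adjusted p = 0.00931), or 0.488-fold.

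ZSCAN12 (chr6:28346732-28367524, minus strand), with 11 fingers, stood at 141 in HCC1143, 9.88 in HCC1395, 382 in HCC38, 6.35 in HCC70, 123 in MDA-MB-157, 182 in MDA-MB-231, 164 in MDA-MB-436 and 274 in MDA-MB-468 with TLT, against 159 in HCC1143, 29.3 in HCC1395, 418 in HCC38, 43.2 in HCC70, 409 in MDA-MB-157, 227 in MDA-MB-231, 241 in MDA-MB-436 and 407 in MDA-MB-468 with DMSO. HCC1395 and HCC70 had the lowest levels under both treatments, and the fall was largest in HCC70, at −2.59, and smallest in HCC38, at −0.13. The TLT values of ZSCAN12 in HCC1395 and HCC70 rest on few reads. The change was −0.94 ± 0.26 (SE, limma adjusted p = 0.0175), lower in 8 of 8 lines.

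ZSCAN16 (chr6:28075467-28097860, plus strand), with 4 fingers, stood at 21.2 in HCC1143, 41.98 in HCC1395, 154 in HCC38, 5.43 in HCC70, 3.04 in MDA-MB-157, 26.8 in MDA-MB-231, 24.1 in MDA-MB-436 and 188 in MDA-MB-468 with TLT, against 58.6 in HCC1143, 47.2 in HCC1395, 100.5 in HCC38, 53.7 in HCC70, 27.9 in MDA-MB-157, 54.02 in MDA-MB-231, 35.6 in MDA-MB-436 and 335 in MDA-MB-468 with DMSO. Its 2 lowest TLT values, in HCC70 and MDA-MB-157, rest on few reads, and HCC38 was higher with TLT. The change was −1.16 ± 0.36 (SE, limma adjusted p = 0.0317). The call of ZSCAN16 was lost without HCC1143, HCC70, MDA-MB-157, MDA-MB-231 or MDA-MB-468, with adjusted p values up to 0.0726.

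The remaining lower ZSCAN genes had smaller changes. ZSCAN2, with 14 fingers, changed by −0.61 ± 0.19 (SE, limma adjusted p = 0.0357) and lost its call without HCC1143, HCC70, MDA-MB-157, MDA-MB-436 or MDA-MB-468, at adjusted p values up to 0.0991. ZSCAN21 changed by −0.60 ± 0.19 (SE, limma adjusted p = 0.0302), lower in 6 lines, and lost its call without HCC70, MDA-MB-157, MDA-MB-436 or MDA-MB-468, at adjusted p values up to 0.0763. ZSCAN21 overlaps ZNF3 on the opposite strand, and ZNF3 changed by −0.71 (limma adjusted p = 0.0293). Strand was not kept in these libraries, and reads of the shared stretch cannot be assigned to either gene. ZSCAN23, at −0.71 ± 0.25 (SE) and a limma adjusted p of 0.05 just past the threshold, ZSCAN22, ZSCAN18 and ZSCAN29 were not called.

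All 5 ZKSCAN genes were tested, and 2 were lower. ZKSCAN3 (chr6:28317724-28336949, plus strand), with 7 fingers, has been described as a repressor of autophagy genes. It stood at 29.4 in HCC1143, 40.2 in HCC1395, 114 in HCC38, 8.25 in HCC70, 20.8 in MDA-MB-157, 92.4 in MDA-MB-231, 35.8 in MDA-MB-436 and 68.1 in MDA-MB-468 with TLT, against 39.3 in HCC1143, 77.9 in HCC1395, 168 in HCC38, 18.6 in HCC70, 70.7 in MDA-MB-157, 137 in MDA-MB-231, 65.4 in MDA-MB-436 and 57.5 in MDA-MB-468 with DMSO. MDA-MB-468 alone was higher with TLT, at 0.24. The change was −0.74 ± 0.20 (SE, limma adjusted p = 0.0191), or 0.601-fold, with the largest fall in MDA-MB-157. ZKSCAN4 ranged from 3.54 to 172 with a median of 51.96 in TLT libraries and 22.3 to 239 with a median of 99.95 in DMSO libraries. It was lower in 6 lines, with a change of −0.87 ± 0.29 (SE, limma adjusted p = 0.0393), and lost its call without HCC70, MDA-MB-157, MDA-MB-436 or MDA-MB-468, at adjusted p values up to 0.0973. The lowest TLT value of ZKSCAN4, in HCC70, rests on few reads. ZKSCAN1, lower in 7 lines at −0.26 ± 0.11 (SE, limma adjusted p = 0.0891), ZKSCAN5 at −0.09 ± 0.19 (SE) and ZKSCAN2 at 0.03 ± 0.20 (SE) were not called.

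The 3 higher members were ZSCAN12P1, ZSCAN5A and ZBTB1. ZSCAN12P1 (chr6:28060205-28060623, plus strand) is annotated as a transcribed unprocessed pseudogene, so no protein is assigned to it. It stood at 438 in HCC1143, 2.72 in HCC1395, 28.8 in HCC38, 160.4 in HCC70, 128 in MDA-MB-157, 11.3 in MDA-MB-231, 61.4 in MDA-MB-436 and 1052 in MDA-MB-468 with TLT, against 74.4 in HCC1143, 0 in HCC1395, 16.1 in HCC38, 14.02 in HCC70, 83.8 in MDA-MB-157, 2.66 in MDA-MB-231, 23.3 in MDA-MB-436 and 165 in MDA-MB-468 with DMSO. The lines span a wide range of levels, the DMSO value of HCC1395 is listed at 0, and all 8 lines were higher with TLT. The values of HCC1395 and the DMSO value of MDA-MB-231 rest on few reads. The change was 1.88 ± 0.29 (SE, limma adjusted p = 0.000974), or 3.68-fold, from 0.60 in MDA-MB-157 to 3.43 in HCC70. Its size depends on the 1 added to each value. With 0.1 added the change was 2.30, and with 10 added it was 1.39. ZNF165, the nearest tested gene upstream on the same strand, ends 2864 bases away and changed by −0.56 (limma adjusted p = 0.142). ZSCAN12P1 lies inside a noncoding gene annotated on the same strand (chr6:28058915-28061442) and overlaps the noncoding gene ZSCAN16-AS1 on the other strand. Neither was tested, and reads of the shared stretches cannot be assigned to ZSCAN12P1 alone. Reads of a pseudogene can be shared with its parent gene, here ZSCAN12, which fell.

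ZSCAN5A (chr19:56731039-56879752, minus strand), with 5 fingers, stood at 169.7 in HCC1143, 111 in HCC1395, 169 in HCC38, 58.02 in HCC70, 181 in MDA-MB-157, 93.5 in MDA-MB-231, 420.1 in MDA-MB-436 and 208 in MDA-MB-468 with TLT, against 97.04 in HCC1143, 96.96 in HCC1395, 117 in HCC38, 36.2 in HCC70, 127 in MDA-MB-157, 72.6 in MDA-MB-231, 201 in MDA-MB-436 and 101.3 in MDA-MB-468 with DMSO. All 8 lines were higher, by 0.19 in HCC1395 and up to 1.06 in MDA-MB-436. The change was 0.64 ± 0.14 (SE, limma adjusted p = 0.00551). Several untested noncoding genes and pseudogenes are annotated inside ZSCAN5A, and so is the untested protein-coding gene EDDM13, on the other strand. Reads of the shared stretches cannot be assigned to ZSCAN5A alone.

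ZBTB1 (chr14:64970430-65000408, plus strand) is a factor needed for lymphocyte development in mice. It stood at 2416 in HCC1143, 1188 in HCC1395, 845 in HCC38, 1155 in HCC70, 849.6 in MDA-MB-157, 1518 in MDA-MB-231, 831 in MDA-MB-436 and 1832 in MDA-MB-468 with TLT, against 1342 in HCC1143, 666 in HCC1395, 539 in HCC38, 964 in HCC70, 1000.4 in MDA-MB-157, 711 in MDA-MB-231, 633 in MDA-MB-436 and 915 in MDA-MB-468 with DMSO. It was higher in 7 lines and lower, at −0.24, in MDA-MB-157. The change was 0.61 ± 0.13 (SE, limma adjusted p = 0.0058), or 1.52-fold.

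**Figure D2:**
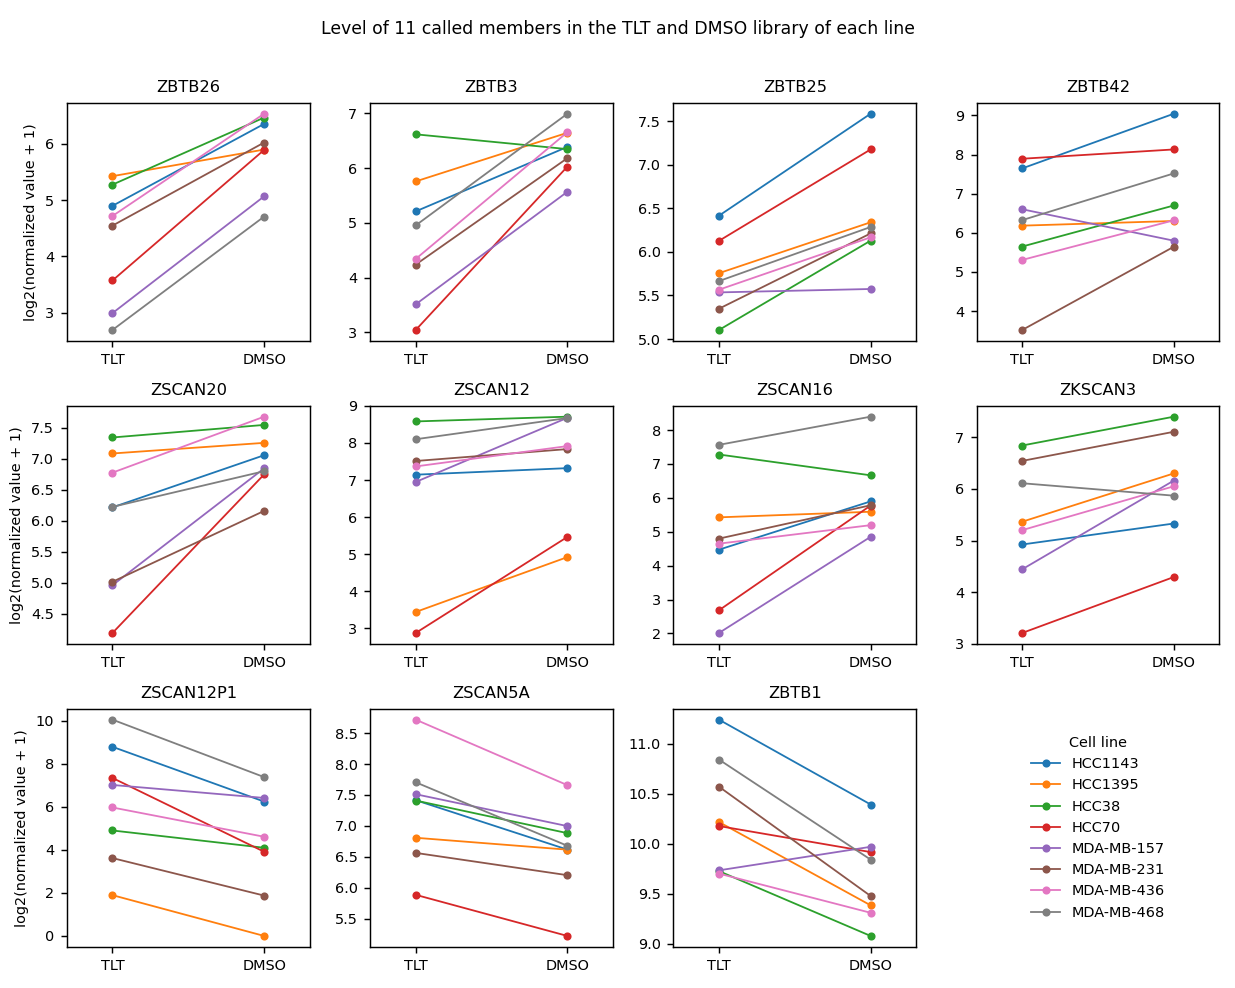
Level of the 8 members with the largest falls and the 3 with rises among called members whose direction held in 7 or 8 lines, as log2(normalized value + 1), in the TLT library (left) and the DMSO library (right) of each line, with 1 coloured line per cell line and a separate axis per gene. ZBTB26, ZBTB25, ZSCAN20 and ZSCAN12 were lower with TLT in 8 of 8 lines, and ZSCAN12P1 and ZSCAN5A higher in 8 of 8.

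Some members are neighbours, and neighbours did not always move alike. Of the 52 tested members, 33 overlap an annotated gene and 12 overlap a tested gene. Reads that cannot be assigned can therefore touch members beyond those described here. Among called members, ZSCAN16 and ZSCAN2 overlap only untested genes. ZBTB1 and ZBTB25 lie head to head on chromosome 14 and share 1502 bases at their starts on opposite strands. ZBTB1 was higher and ZBTB25 lower in 7 of 8 lines, with MDA-MB-157 as the exception. Without strand, reads from the shared stretch cannot be assigned to either gene. On the other strand ZBTB25 also overlaps AKAP5, a kinase anchoring protein gene, which changed by −1.18 (limma adjusted p = 0.00181), and MTHFD1, a folate enzyme gene, which was not called at 0.15 (limma adjusted p = 0.238). ZBTB37 overlaps the noncoding gene GAS5 on the other strand, which was not called at 0.05 (limma adjusted p = 0.664). On chromosome 9, ZBTB6 and ZBTB26 lie on the same strand with 2242 bases between them. ZBTB6 changed by 0.21 ± 0.20 (SE, limma adjusted p = 0.452), and in 6 of 8 lines it was above 0 while ZBTB26 was below 0. The exceptions were HCC70 and MDA-MB-157, the lines in which ZBTB6 was lower. ZBTB8A overlaps ZBTB8OS on the opposite strand. ZBTB8OS is a tRNA ligase cofactor of the archease family, named only for its position and without a zinc finger motif, and it changed by 0.10 ± 0.11 (SE, limma adjusted p = 0.512).

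A cluster on chromosome 6, between positions 28060205 and 28411279 on GRCh37, holds 6 of the tested members. ZSCAN16, ZKSCAN4, ZKSCAN3 and ZSCAN12 were called lower, ZSCAN23 was at −0.71 and not called, and ZSCAN12P1 was called higher. Thus 4 of the 6 were lower (66.7%), against 10.9% of all genes tested, and 1 was higher, against 15%. The median change of the 6 was −0.80. ZNF165, a SCAN domain gene just outside these positions, was not called at −0.56 (limma adjusted p = 0.142). ZKSCAN3 and ZSCAN12 stand next to each other on opposite strands with 9783 bases between them. ZKSCAN3 overlaps ZSCAN31 on the opposite strand, listed as ZNF323 and lower at −0.90, and reads of the shared stretch cannot be assigned to either. ZSCAN12P1 and ZSCAN16, which moved in opposite directions, share a strand with 14844 bases between them.

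The families were compared by their counts, medians and order within each line, without a test of the difference. Of the ZBTB genes 9 of 36 were lower (25%) and 1 higher, with a median change of −0.19 and quartiles of −0.56 and 0.05. Of the ZSCAN genes 5 of 11 were lower (45.5%) and 2 higher, with a median of −0.60 and quartiles of −0.83 and −0.14. Of the ZKSCAN genes 2 of 5 were lower (40%) and none higher, with a median of −0.26. All 3 shares of lower calls lie above the 10.9% of all genes tested, and 15% of all genes tested were higher. The ZSCAN median was below the ZBTB median in 8 of 8 lines and below the ZKSCAN median in 7 of 8, while the ZKSCAN median was below the ZBTB median in 4 of 8. Without MDA-MB-157 the ZBTB median was −0.09, the ZKSCAN median −0.16 and the ZSCAN median −0.52. With 11 and 5 genes, 1 or 2 genes can move the ZSCAN and ZKSCAN medians. The families also differed in level. The median level of the ZSCAN genes was 121 with TLT and 134 with DMSO. That of the ZBTB genes was 409 with TLT and 394 with DMSO, and that of the ZKSCAN genes 386 and 334. The part of level in the family differences was not tested.

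The family medians varied widely across lines. The ZBTB median ran from −0.59 in MDA-MB-157 to 0.08 in HCC38. The ZSCAN median ran from −1.56 in HCC70 to 0.02 in HCC38, and the ZKSCAN median from −1.36 in MDA-MB-157 to 0.17 in MDA-MB-231. The spread of the 8 line medians was 0.25, 0.51 and 0.58 (SD) for ZBTB, ZSCAN and ZKSCAN genes. In HCC38 and HCC1395 every family median was at or above 0. The ZSCAN median of 0 in HCC1395 is the change of ZSCAN23, which stood at 0 under both treatments there. The ZSCAN changes next to it in that line were −0.17 (ZSCAN16) and 0.03 (ZSCAN29).

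**Figure D3:**
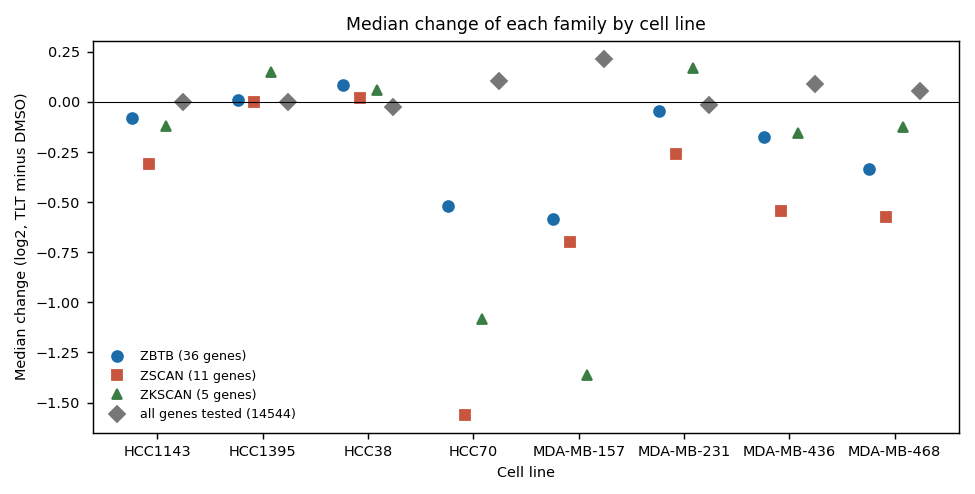
Median change with TLT (log2, TLT minus DMSO) of the ZBTB, ZSCAN and ZKSCAN genes and of all 14544 genes tested in each cell line, each point 1 median. The family medians lie far below the all-gene medians in HCC70 and MDA-MB-157 and near them in HCC1395 and HCC38.

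Line by line, the median change of the 52 members was −0.81 in MDA-MB-157, −0.72 in HCC70, −0.34 in MDA-MB-468, −0.23 in MDA-MB-436, −0.20 in HCC1143, −0.05 in MDA-MB-231, 0.01 in HCC1395 and 0.07 in HCC38. It was below the median of all genes in 6 of 8 lines, with HCC1395 and HCC38 as exceptions. Of the 16 lower members, 11 had their lowest change in HCC70, and 12 had their highest in HCC38 or HCC1395. Of all 52 tested members, 23 had their lowest change in HCC70, 14 their highest in HCC38 and 12 their highest in HCC1395. The medians of the 16 lower members were −1.56 in HCC70 and −1.43 in MDA-MB-157, against −0.14 in HCC38 and −0.17 in HCC1395, but these members were picked by their fall over the same lines.

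MDA-MB-157 and HCC70 also stood apart in the whole library. The summed value was 21080400 with TLT and 16708300 with DMSO in MDA-MB-157, and 18193700 with TLT and 15021300 with DMSO in HCC70, the 2 largest increases of the 8 lines. The part of this difference in the members' changes was not tested. Without MDA-MB-157 and HCC70, 11 of 51 members were lower (21.6%), against 12.8% of all genes tested in that fit, and the median change was −0.11. In the same fit 8 members were higher (15.7%), near the 13.7% of all genes tested. The lower calls then included 10 of the original 16 and ZSCAN23, at −0.86. The 5 added rises were ZBTB34 at 0.64, ZBTB43 at 0.58, ZBTB6 at 0.56, ZKSCAN2 at 0.38 and ZBTB5 at 0.33, chosen here after their values were seen. All 5 were below 0 in both lines left out. These lines had the lowest median changes of the members, at −0.81 in MDA-MB-157 and −0.72 in HCC70. A smaller fall and added rises without them therefore follow from the choice of lines. ZBTB34 and ZBTB43 are neighbours on chromosome 9, and leaving out MDA-MB-157 alone sufficed to call both higher.

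Lane 1 of the sequencer held the MDA-MB libraries and lane 2 the HCC libraries, with both treatments of a line together. In the 4 MDA-MB lines alone 6 members were lower (11.5%, against 4.52% of all genes) and 2 higher (3.85%, against 4.99%), with a median change of −0.32. In the 4 HCC lines alone 0 members passed limma's adjusted threshold in either direction, with 13 at an unadjusted p under 0.05 and a median change of −0.25. Over all genes, the 4 HCC lines gave 46 lower (0.326%) and 124 higher calls (0.878%) and the 4 MDA-MB lines 654 and 723, so fewer calls of any gene were made in the HCC lines.

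The lower members were mostly those of low value. The members' mean values had a median of 318. Of the 26 members under it, 14 were lower (ZSCAN12P1 and ZSCAN5A were higher), with a median change of −0.61, against 11.8% lower and a median of −0.01 over all genes under that level. Of the 26 at or above it, only ZBTB4 and ZBTB33 were lower and ZBTB1 higher, with a median of −0.09, against 10.2% lower and a median of 0.07 over all genes at or above that level. Across the 52 members the change correlated with the mean value at a Spearman rho of 0.53 and a Pearson r of 0.34, as a description over genes that share the same libraries. The values are not divided by gene length, so a low value can belong to a short transcript.

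**Figure D4:**
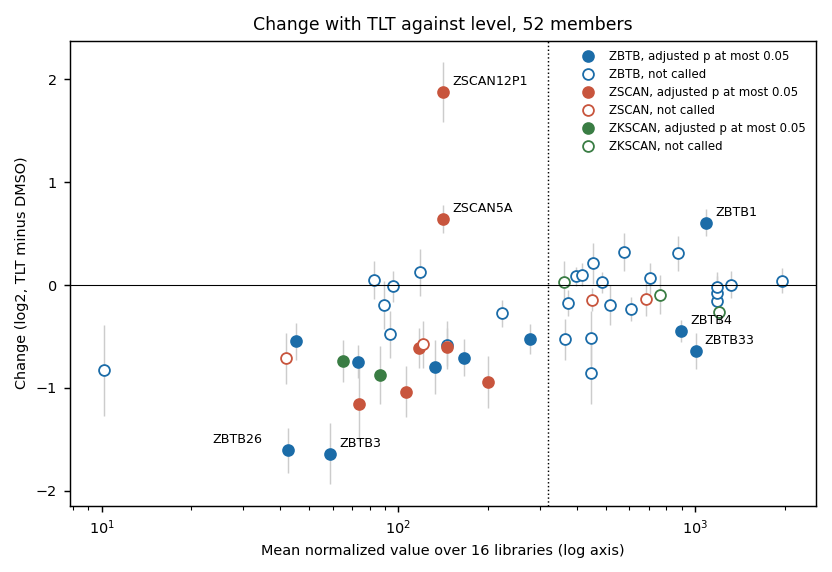
Change with TLT (log2, TLT minus DMSO, bars ± 1 SE) against the mean normalized value over the 16 libraries (log axis) for the 52 tested members, filled where called. The dotted line is the members' median of 318, and 14 of the 16 lower members lie to its left.

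Gene structure separated the members less than level did. C2H2 motifs, counted in the translated main transcript of GENCODE, ranged from 0 to 14 with a median of 3.5 in ZBTB genes, from 2 to 14 with a median of 6 in ZSCAN genes, and from 6 to 12 with a median of 7 in ZKSCAN genes. The number of motifs and the change correlated at a Spearman rho of −0.19 over 51 members. Of the 13 ZBTB genes with at least 5 motifs 3 were lower, and of the 23 with fewer 6 were lower, with median changes of −0.20 and −0.19. The coding sequence lay in 1 exon in 14 members, all ZBTB genes, of which 4 were lower and 1 higher with a median of −0.14. The 37 members with at least 2 coding exons gave 12 lower and 1 higher with a median of −0.26. Over all genes, those with 1 coding exon were lower in 23.8% of 681 and those with more in 9.91% of 11475. Gene length correlated with the change at a Spearman rho of 0.36 over 52 members, and transcript length, exon number and GC content at −0.06, 0.06 and −0.03.

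A RefSeq promoter was found for 44 of the 52 members, 15 of them lower members. The ETS motif CCGGAAG, read on both strands, was present in 16 of the 44 (36.4%), against 17.7% of the promoters of all genes tested and 10.7% of all 27305 promoters. It was in 8 of the 15 lower members and in 8 of the 29 others. Among the printed promoters ZBTB26, ZSCAN20 and ZSCAN12 hold it, and ZBTB3, ZBTB25, ZBTB1 and ZSCAN5A do not. The GC box GGGCGG was in 34 (77.3%), against 69.3% of the promoters of genes tested, and the CCAAT box in 16 (36.4%), against 36.5%. The ZBTB3 promoter holds 5 CCAAT boxes, and 0.513% of the promoters of genes tested hold at least as many. The E box CACGTG was in 7 (15.9%), against 9.99%, and the TATA box TATAAA in 0, against 5.99%. The cyclic AMP response element was in 2, the NRF1 site in 1 and the Kaiso site in 0. The overlap of these motifs with one another was not removed, a match is a stretch of letters and not a shown binding site, and the motif counts were not tested.

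Relatives that the table lists under other symbols moved in part alike. Among SCAN domain genes named ZNF or otherwise, 33 were tested. Of these 33 genes, 11 were lower and 1 was higher, with a median change of −0.46. Over all genes, 10.9% were lower and 15% higher. The smallest p values were those of ZNF397 at −1.24, ZNF323 at −0.90 and ZNF445 at −1.35, each lower in 8 of 8 lines with limma adjusted p values of 0.00044, 0.00122 and 0.0014. RefSeq now names ZNF323 as ZSCAN31 and ZNF187, also lower in 8 of 8 lines at −1.17, as ZSCAN26. These are examples, and other genes of the list were not called. Among those were ZNF192 at −0.87 (limma adjusted p = 0.0507) and ZNF193 at −0.51 (limma adjusted p = 0.176), the latter with 4 lines on either side. MZF1, a myeloid SCAN domain factor and the single higher gene of this list, was higher in 8 of 8 lines at 0.66 (limma adjusted p = 0.00688). ZNF187, ZNF192, ZNF193 and MZF1 were singled out after their values were seen. Among BTB zinc finger genes under other symbols, 10 were tested, with a median of 0.04. Of these, 1 was lower, against 10.9% of all genes, and 2 were higher, against 15%, so both counts lie near the shares of all genes. PATZ1 was lower in 8 of 8 lines at −0.80 (limma adjusted p = 0.00103). BCL6, the repressor of germinal centre B cells, was higher in 8 of 8 lines at 0.76 (limma adjusted p = 0.000733), and ZNF295, now ZBTB21 in RefSeq, was higher in 7 lines at 0.69 (limma adjusted p = 0.00241). Of the 490 genes with ZNF symbols tested, 133 were lower (27.1%), against 10.9% of all genes, and 11 higher, against 15%. Their median change was −0.33, a pattern near that of the ZBTB, ZSCAN and ZKSCAN genes. The 490 include the tested SCAN domain and BTB genes above that carry ZNF symbols.

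The 7 members below the level for testing were each detected in some library. ZBTB16, known as PLZF, averaged 4.97 ± 10.5 in TLT libraries and 6.14 ± 14.3 in DMSO libraries (SD, n = 8 each), ZBTB20 8.75 ± 10.4 in TLT libraries and 7.88 ± 10.9 in DMSO libraries and ZBTB32 3.04 ± 4.01 in TLT libraries and 3.16 ± 3.36 in DMSO libraries. ZSCAN4, known from the earliest mouse embryo and from telomere maintenance in mouse embryonic stem cells, and ZSCAN1 averaged under 5 in both groups. Their highest values were in MDA-MB-468, at 18.2 with TLT and 4.86 with DMSO for ZSCAN4 and at 20.9 with TLT and 21.1 with DMSO for ZSCAN1. ZSCAN10, a factor of mouse embryonic stem cells, stood at 0 in HCC1143, 3.70 in HCC1395, 16 in HCC38, 10.9 in HCC70, 23.1 in MDA-MB-157, 0 in MDA-MB-231, 15.7 in MDA-MB-436 and 7.27 in MDA-MB-468 with TLT, against 0 in HCC1143, 0 in HCC1395, 0 in HCC38, 0 in HCC70, 1.16 in MDA-MB-157, 0 in MDA-MB-231, 0.998 in MDA-MB-436 and 0 in MDA-MB-468 with DMSO. It was above its DMSO value in 6 lines and at 0 under both treatments in HCC1143 and MDA-MB-231. ZSCAN5B averaged 7.18 ± 8.29 in TLT libraries and 1.42 ± 1.41 in DMSO libraries (SD, n = 8 each), above DMSO in 6 lines, with its highest TLT values of 16.5 in MDA-MB-157 and 23.2 in MDA-MB-436. By the value of 1 read, ZSCAN10 had at most 20 reads in a TLT library and 1 in a DMSO library, and ZSCAN5B at most 19.3 in a TLT library and 3.6 in a DMSO library. No test was made of them, and both genes were singled out after their values were seen.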

How the data were processed

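Poly(A) RNA of 8 lines, treated with TLT or DMSO for 6 h, was read in single 50-base reads without strand. The deposited unit is a normalized signal, with no counts: MapSplice alignments to hg19 were summed per gene by RSEM, and each library was then scaled to its upper quartile. The submitters' processing notes name DESeq2 1.4.5 for the authors' comparisons, whose fold changes were not used here. Of 20531 rows, 29 without a gene name (0.0398% of the signal) were left out.

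The 14544 genes with a mean of at least 10 entered a linear model of log2(value + 1) on treatment and cell line (limma 3.58.1, R 4.3.3), with trended, robust variance moderation. P-values were adjusted over all of them by the Benjamini-Hochberg method, at a threshold of 0.05. The replicate block is the cell line, which the labels name. Both libraries of a line deviated together from their group means, at correlations of 0.900 to 0.954, against at most 0.296 with another line. The fit was tested on simulated data with known changes. Depth was estimated from the value of 1 read, and 82.9% to 84.8% of values under 60 were whole within 0.01 reads, too few for a count test. Gene models were taken from GENCODE on GRCh37 and promoters from RefSeq on GRCh38.p14. The members and gene lists were chosen with earlier results of these data known. Named were all called members, well-known members and up to 3 called genes per list by smallest p, with exceptions marked as chosen after their values were seen, and the 8 largest falls and up to 4 largest rises seen in at least 7 lines were given in every library. Alternatives were no block, median ratio scaling, no trend, other filters and pseudocounts, each line left out, each lane alone and MDA-MB-157 with HCC70 left out.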

Additional observations from a re-analysis of the deposited data

Results flagged for a closer look

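Among 55 sets of 8 line values, those of the members and the family medians, 3 had a line far from the other 7, and chance gives about 1 in 20. ZBTB7C changed by 1.59 in HCC1143, while the next highest line stood at 0.24, and this change rests on values of 4.80 with TLT and 0.929 with DMSO, or 4 reads and 1 read. ZBTB8A changed by −1.51 in HCC70, while the next lowest line stood at −0.60. The ZSCAN median was −1.56 in HCC70, while the next lowest line stood at −0.70.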

How the results depend on the processing

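Without the replicate block, that is without the cell line as a term, 0 members were called lower and 0 higher, with 7 at an unadjusted p under 0.05, and over all genes limma called 0 lower and 7 higher. With a mean of at least 100 required, 39 members were tested and 9 were lower, 9 of the original 16, against 1383 of 11269 genes tested. In that fit 3 members were higher, against 1854 of all genes. Leaving out each line in turn gave 10 to 17 lower members and 3 to 5 higher members. The 10 lower members came without MDA-MB-468, where 1081 of 14459 genes tested were lower. The 5 higher members, of 51 tested, came without MDA-MB-157, where 2046 of 14382 genes tested were higher. Without MDA-MB-157 and HCC70 there were 8 higher members. The MDA-MB lines alone gave 6 lower members, and the HCC lines alone 0 lower and 0 higher, fits that rest on 4 lines each. The uncalled change of ZBTB7A ran from −0.016 to 0.0954 and that of ZBTB38 from −0.0776 to 0.112 with single lines left out, and ZBTB38 was at −0.15 in the HCC lines alone. Median ratio scaling, no trend, no filter and pseudocounts of 0.1 and 10 gave 13 to 18 lower members and 3 higher members. Over all genes these settings gave 1349 to 1701 lower and 1631 to 2305 higher calls. Of the 19 called members, 13 were called with each line left out. Low read numbers limit what can be said of ZSCAN10, ZSCAN5B and ZBTB8B. The cause of these shifts was not tested.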

Other observations

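Partners of the encoded proteins showed small changes. Of 10 partners of BTB domains 0 were lower, against 10.9% of all genes, and 3 were higher, against 15% of all genes: CUL3, the ubiquitin ligase scaffold, at 0.33, and the histone deacetylases HDAC1 at 0.31 and HDAC2 at 0.25 (limma adjusted p = 0.00463, 0.00977 and 0.0257). Of TRIM28 and 5 partners 1 was lower, against 10.9% of all genes, and 2 were higher, against 15%. SETDB1, the histone methyltransferase that TRIM28 brings to KRAB zinc finger sites, was lower in 8 of 8 lines at −0.42 (limma adjusted p = 0.00855). The chromatin proteins CBX3 and CBX1 were higher in 8 of 8 lines at 0.26 and 0.18 (limma adjusted p = 0.0236 and 0.0311), and TRIM28 itself was not called at 0.17 (limma adjusted p = 0.0723).

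CDKN1A and CDKN2B, cell cycle inhibitor genes that ZBTB17 is known to activate, were higher. CDKN1A averaged 5465 ± 3142 with TLT and 1929 ± 1322 with DMSO (SD, n = 8 each), a change of 1.64 ± 0.16 (SE, limma adjusted p = 9.3e-05) seen in 8 of 8 lines. CDKN2B changed by 0.83 ± 0.21 (SE, limma adjusted p = 0.0118) in 7 lines. The other genes of this list of 4, MYC and MAX, were not called, at −0.11 and 0.14. Thus 2 of the 4 were higher, against 15% of all genes, and 0 lower, against 10.9%. Of 6 keratins and other markers of the lines themselves 5 were higher, against 15% of all genes, and 0 lower, against 10.9%. The smallest p values were those of KRT18 at 0.55, KRT8 at 0.46 and KRT5 at 0.67 (limma adjusted p = 0.00523, 0.00799 and 0.00837).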
